A study of Mus musculus with 5 samples.

Results

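The levels of 10 imprinted genes that act on growth were followed through the cell types of the embryonic mouse eye region: Igf2, H19, Igf2r, Plagl1, Cdkn1c, Dlk1, Meg3, Peg3, Peg10 and Mest. They were chosen by symbol, and all 10 were among the 27998 genes of the deposited matrix. The cells came from both optic areas, cut out with needles and dissociated with trypsin, of wild-type C57BL/6J embryos, 1 embryo each at 12, 16, 20, 24 and 26 somites, and were profiled with droplet-based 3′ single-cell RNA sequencing. All cells lie in 1 matrix of unique molecular identifier (UMI) counts, each UMI standing for 1 captured RNA molecule, and a barcode suffix from 1 to 5 separates the libraries without naming a stage. No stage was therefore given to a library, no stages were compared, and values are listed for libraries 1 to 5 by their suffix.

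An imprinted gene is transcribed mainly from the copy inherited from 1 parent. Several genes of this kind act on opposite sides of growth control: Igf2 encodes a growth factor, Igf2r a receptor that clears it, and Cdkn1c an inhibitor of the cell cycle. Igf2 with H19, and Dlk1 with Meg3, form neighbouring pairs whose members are expressed from opposite parental copies. The embryos were of a single inbred strain, so the parental copies could not be told apart in these counts.

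In the GENCODE M21 annotation of GRCm38, the same build as mm10, Igf2 lies at chr7:142650766-142666816, minus strand, and H19 lies on the same strand at chr7:142575529-142578143, minus strand. Cdkn1c lies farther along that chromosome at chr7:143458339-143461050, minus strand. Dlk1 (chr12:109452823-109463336, plus strand) and Meg3 (chr12:109541001-109571726, plus strand) are neighbours on chromosome 12. Igf2r lies at chr17:12682406-12769664, minus strand, Plagl1 at chr10:13060504-13131694, plus strand, Peg3 at chr7:6703892-6730431, minus strand, Peg10 at chr6:4747306-4760517, plus strand and Mest at chr6:30723547-30748465, plus strand. H19 and Meg3 are annotated as long non-coding RNAs and the other 8 as protein-coding. Exons of 4 members overlap a gene of the opposite strand that was also counted: Igf2 with Igf2os, Igf2r with Airn, Meg3 with Gm26906, and Mest with Copg2, which overlaps the 3′ end of Mest. Whether counting used the strand is not given in the sources used here, so reads from these overlaps cannot be assigned with certainty.

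Promoter windows of 300 bases, from 250 bases before to 50 bases after an annotated start, were taken from RefSeq for GRCm38.p6 and matched 7 of the 10 members. The windows of Plagl1, Igf2, Dlk1 and Meg3 are shown because the levels of these genes separated the cell types most or moved together from cell to cell. Igf2 had 4 windows and Meg3 2, from alternative starts, and for each of these genes 1 window that holds a motif was picked after the motif search. Capitals mark GGGGCC on either strand, the core of the GC-rich sequence that the zinc-finger protein PLAGL1 is known to bind, and TATAAA on either strand. The longer GGGGCCCC was also searched. It was in 1.08% of all windows of this length. Among the members it was in the Peg3 window, which is not shown, and in none of the windows shown.
Plagl1 promoter, chr10:13090582-13090881, plus strand: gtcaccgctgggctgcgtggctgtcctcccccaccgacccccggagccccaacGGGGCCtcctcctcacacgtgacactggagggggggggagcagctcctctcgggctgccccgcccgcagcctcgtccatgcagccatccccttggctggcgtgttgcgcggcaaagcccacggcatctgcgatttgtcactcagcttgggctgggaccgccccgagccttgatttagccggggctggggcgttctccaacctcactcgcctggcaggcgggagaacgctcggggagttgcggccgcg
Igf2 promoter, chr7:142657447-142657746, minus strand: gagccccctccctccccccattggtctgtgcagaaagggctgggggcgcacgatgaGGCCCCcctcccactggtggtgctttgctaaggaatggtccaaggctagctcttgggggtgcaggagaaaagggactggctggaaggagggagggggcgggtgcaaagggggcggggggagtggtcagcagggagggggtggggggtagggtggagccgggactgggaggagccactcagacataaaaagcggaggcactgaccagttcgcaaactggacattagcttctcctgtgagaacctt
Dlk1 promoter, chr12:109452573-109452872, plus strand: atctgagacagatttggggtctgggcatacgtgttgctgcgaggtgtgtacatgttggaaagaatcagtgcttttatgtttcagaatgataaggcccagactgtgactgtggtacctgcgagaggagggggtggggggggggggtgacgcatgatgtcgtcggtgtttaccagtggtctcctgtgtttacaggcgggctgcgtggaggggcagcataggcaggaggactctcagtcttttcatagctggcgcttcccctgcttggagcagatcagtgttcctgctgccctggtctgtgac
Meg3 promoter, chr12:109540746-109541045, plus strand: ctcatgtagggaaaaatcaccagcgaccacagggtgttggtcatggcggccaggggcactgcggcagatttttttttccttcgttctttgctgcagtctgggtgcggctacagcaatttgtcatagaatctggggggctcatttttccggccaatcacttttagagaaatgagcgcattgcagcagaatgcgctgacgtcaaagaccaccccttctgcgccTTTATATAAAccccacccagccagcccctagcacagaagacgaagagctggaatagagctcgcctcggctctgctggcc
GGGGCC was present once in the Plagl1 window and once, as its reverse complement, in the Igf2 window shown, and in neither of the others; it was in 2 of the 4 Igf2 windows. TATAAA occurred in the Meg3 window shown on both strands, the 2 copies overlapping, just upstream of the start, and was not in the other Meg3 window. Among the members not shown, GGGGCC was in 1 of 1 Peg3 window, 3 of 3 Mest windows and 0 of 1 Igf2r window. GGGGCC was in 24.97% and TATAAA in 13.6% of all 32851 windows of this length. A match describes the letters of the window and does not show binding.

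The matrix held 257637891 UMIs in 8194 barcodes, from 41694822 to 72925591 UMIs per library, and the median barcode of a library had 20713 to 30922 UMIs. After filtering, 8106 cells remained, and 40 barcode sequences occurred in more than 1 library. Of these 8106 cells, 902 were in clusters or sub-clusters left unnamed and 767 in clusters poor in the nuclear RNA Malat1. Neither group is in the classes below. Cells were clustered without the 10 genes, and clusters were named from markers as "X-like"; the classes used here are optic vesicle (1977 cells), other forebrain (1095), cranial neural crest mesenchyme (1713), head mesoderm (436), endothelium (388), surface ectoderm (404), migratory neural crest (100), erythroid (253) and neuron (33). In the optic vesicle, crest mesenchyme, head mesoderm, endothelium, surface ectoderm and erythroid classes, 9 of 10, 10 of 10, 9 of 10, 10 of 10, 11 of 11 and 8 of 8 listed markers were over 2-fold higher than in the other cells. Of the 24 optic vesicle sub-clusters, 6 had at least as many markers of another brain region as of their own among the 10 genes that set them off most from the other neuroepithelium of their library. Among these are 84 cells of library 4 led by Shh and Nkx2-1, genes of the hypothalamus list, and the 3 comparisons that use optic vesicle cells were also computed without these sub-clusters. Sepp1, Mt3 and Maf were among the 10 genes that set these 84 cells off most. They were so too in sub-clusters of 59 cells of library 2 and 93 cells of library 3, both left unnamed. Cells set off by these genes are thus in the optic vesicle class of library 4 but not of libraries 2 and 3. Nearly all crest mesenchyme of libraries 1 and 2, of 3 and 4, and of 5 fell into different clusters, and other forebrain had 0 cells in library 5. Haemoglobin RNA, a sign of free RNA, was present at 147 to 650.5 counts per 1000000 UMIs (CPM) in the optic vesicle, forebrain, crest, mesoderm, endothelial and ectodermal classes together, depending on the library. Unless stated otherwise, levels are CPM: the UMIs of a gene summed over the cells of a class, per 1000000 UMIs of that class.

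Igf2, which encodes insulin-like growth factor 2, was highest in endothelium, at 464, 519.8, 423, 407 and 870.4 CPM in libraries 1 to 5. Surface ectoderm had 199, 144, 129, 205 and 461 CPM, and head mesoderm 272, 221, 156 and 175 CPM in libraries 1 to 4. These 3 classes were above 100 CPM in every library, and endothelium was above surface ectoderm in 5 of 5 libraries, though their ranges overlap. Crest mesenchyme had 13.2, 17.4, 32.0, 62.6 and 235 CPM and optic vesicle 6.33, 5.30, 5.42, 17.1 and 90.96 CPM in libraries 1 to 5. In both classes libraries 1 to 3 were low and library 5 stood far above the others. Other forebrain had 8.54, 4.26, 2.04 and 1.54 CPM in libraries 1 to 4. Erythroid cells had 1.62, 3.06, 0.00, 1.62 and 8.16 CPM in libraries 1 to 5. These ranges overlap, but within library 1 forebrain was well above the erythroid cells. The 8 listed erythroid markers together held 336297 CPM in erythroid cells, which lowers the CPM of the other genes there.

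The share of cells with an Igf2 UMI was taken at equal depth. After every cell was thinned to 10000 UMIs, optic vesicle cells of libraries 1 to 5 had a share of 4.48%, 6.69%, 4.95%, 13.9% and 39.5%. Erythroid cells, taken as the level of free RNA, had 0% to 5.41%. The optic vesicle of libraries 1 to 3 was close to that background, and that of libraries 4 and 5 was above it. In endothelium the share was 95.8% to 100%, and in crest mesenchyme it was 9.27%, 11.7%, 25.3%, 42.1% and 82.7% in libraries 1 to 5.

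H19, a non-coding RNA transcribed downstream of Igf2, was likewise highest in endothelium. It reached 1274, 1676, 1684, 1949.5 and 2008 CPM in endothelium of libraries 1 to 5, above every library of every other class. Surface ectoderm had 289.8 to 697 CPM and head mesoderm 514 to 796 CPM, and these ranges overlap. Crest mesenchyme had 72.5, 155, 214, 449 and 696 CPM and optic vesicle 13.8, 33.5, 37.0, 145 and 266 CPM in libraries 1 to 5, whereas other forebrain stayed at 17.2 to 24.9 CPM. In optic vesicle and crest mesenchyme library 1 was lowest and library 5 highest.

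Erythroid cells carried H19 almost without Igf2. Their H19 level was 440.5, 542, 675, 926 and 1089.6 CPM in libraries 1 to 5, overlapping the range of surface ectoderm, while Igf2 had 31 UMIs over all 253 cells, against 7328 for H19. The number of H19 UMIs per Igf2 UMI was 236 (interval 166 to 348) in erythroid cells, 3.34 (interval 3.25 to 3.43) in endothelium, 2.65 (interval 2.52 to 2.78) in head mesoderm, 4.40 (interval 4.24 to 4.56) in crest mesenchyme and 3.64 (interval 3.49 to 3.81) in optic vesicle. After thinning, 95.5% to 100% of erythroid cells had an H19 UMI. H19 was the exception among the members there: the other 9 were at most 41.4 CPM in any erythroid library. Library 5 set the pooled values of crest mesenchyme and optic vesicle: the number of H19 UMIs per Igf2 UMI was 2.96 and 2.92 there, and without library 5 it was 7.11 in crest mesenchyme and 7.44 in optic vesicle. By library it was 2.19, 6.33, 6.83, 8.45 and 2.92 in optic vesicle and 2.31 to 4.79 in endothelium. In the 4 erythroid libraries with an Igf2 UMI it was 133 to 572, above every library of the other classes given here, and the part of free RNA in it was not tested otherwise. The 26 myeloid cells had 50 H19 UMIs and 1 Igf2 UMI.

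**Figure D1:**
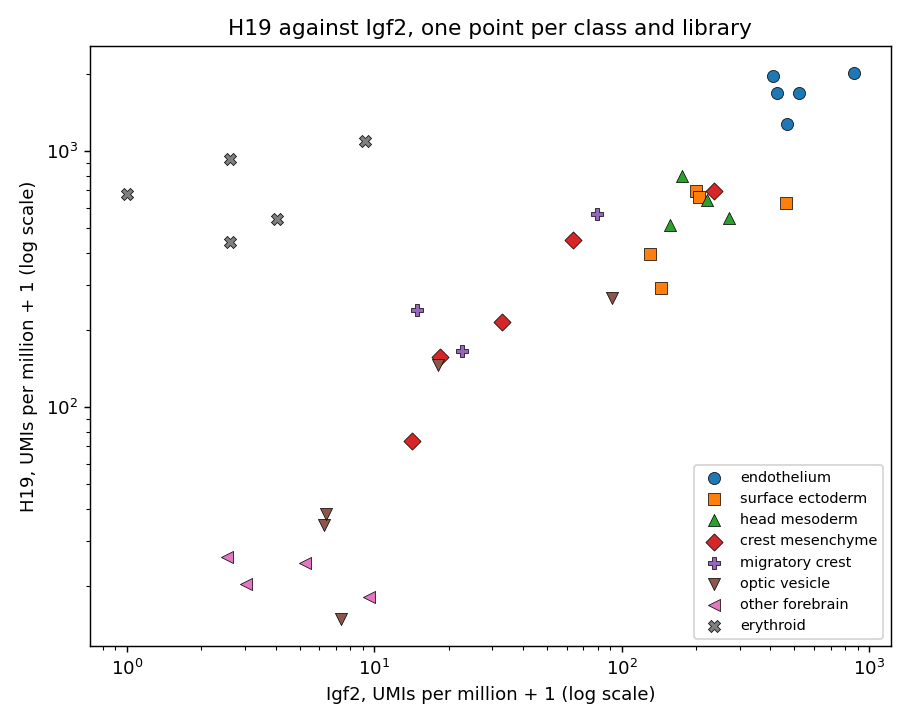
Levels of H19 (vertical axis) against Igf2 (horizontal axis) in CPM plus 1, both on log scales, with 1 point per class and library of at least 20 cells. Endothelium lies at the upper right and forebrain at the lower left, and the 5 erythroid points lie apart at 440.5 to 1089.6 CPM of H19 and at most 8.16 CPM of Igf2.

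Igf2r encodes the receptor that carries insulin-like growth factor 2 to lysosomes, and it was below 100 CPM in every class. Endothelium had 52.1, 67.0, 39.5, 46.9 and 65.2 CPM in libraries 1 to 5, against 20.98 to 40.8 CPM in surface ectoderm, 24.7 to 37.9 CPM in head mesoderm and 18.5 to 36.6 CPM in crest mesenchyme. Optic vesicle had 8.70 to 19.3 CPM and other forebrain 7.64 to 13.1 CPM. Endothelium was above surface ectoderm in 5 of 5 libraries, surface ectoderm and head mesoderm changed places between libraries, and all of these neighbouring ranges overlap.

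Plagl1, which encodes a zinc-finger transcription factor that restrains proliferation, was high in endothelium and neuroepithelium and low in crest mesenchyme. Endothelium had 89.3, 152, 132, 179 and 269 CPM in libraries 1 to 5, above all other classes in every library. Optic vesicle had 7.12, 53.4, 32.2, 52.5 and 65.3 CPM, and other forebrain had 3.36, 43.4, 28.4 and 33.2 CPM in libraries 1 to 4; library 1 was lowest in both. Crest mesenchyme was at 0.483 to 6.70 CPM, which overlaps the erythroid range of 0 to 1.59 CPM. Head mesoderm had 4.95 to 25.4 CPM in libraries 1 to 4, above the erythroid range. Among thinned cells, 51.7% to 89.6% of endothelial cells had a Plagl1 UMI, against 0.403% to 4.69% of crest mesenchyme cells and 0% to 2.56% of erythroid cells.

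Cdkn1c encodes p57, an inhibitor of cyclin-dependent kinases that marks cells leaving the cell cycle in many tissues. It was highest in the 33 neuron-like cells, at 2973 CPM (95% interval 2838 to 3114), a pooled value because no library held 20 of them. Dlk1 at 1213 CPM, Meg3 at 1588 CPM and Peg3 at 425 CPM were also at their highest pooled class level in these cells, while Mest at 357 CPM was below every class except erythroid and myeloid cells. Surface ectoderm had 386, 324, 272, 361 and 469.7 CPM of Cdkn1c in libraries 1 to 5, above endothelium at 217 to 269 CPM. Crest mesenchyme had 26.6, 22.1, 32.1, 52.0 and 133 CPM, the lowest of the 6 large classes in libraries 1 to 5. Migratory neural crest, with 40, 25 and 32 cells in libraries 3 to 5, had 83.2, 300.2 and 971 CPM, so that its libraries differed 11.7-fold.

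Dlk1 encodes a transmembrane ligand-like protein of the Notch family that is cleaved and shed. It was almost absent from endothelium, at 9.83, 8.595, 8.10, 6.76 and 7.19 CPM in libraries 1 to 5, overlapping the erythroid range of 1.08 to 26.3 CPM. Other forebrain had 98.5, 659, 531 and 606 CPM in libraries 1 to 4 and optic vesicle 59.7, 388, 328, 444 and 257 CPM in libraries 1 to 5. Library 1 was lowest in both classes. Surface ectoderm had 215, 1000.3, 723, 996 and 57.0 CPM, with libraries 1 and 5 far below the others. Crest mesenchyme had 22.6, 104, 95.5, 222 and 261 CPM and head mesoderm 46.9, 93.4, 125 and 135 CPM, and these ranges overlap.

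Meg3, the non-coding RNA downstream of Dlk1, was spread more evenly. Other forebrain had 681, 1225, 743 and 831 CPM in libraries 1 to 4, above optic vesicle in 4 of 4 libraries, and optic vesicle had 409, 719, 461, 626 and 672 CPM in libraries 1 to 5. Crest mesenchyme had 205 to 717 CPM, head mesoderm 348 to 456 CPM and endothelium 147, 242, 238, 268 and 378 CPM. In endothelium Meg3 was thus present with almost no Dlk1. In surface ectoderm, libraries 1 to 4 had 318, 526, 527 and 522 CPM and library 5 had 174 CPM.

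Peg3, a zinc-finger protein gene, was highest in head mesoderm among the classes with values per library, at 404, 458, 295 and 308 CPM in libraries 1 to 4. This was above surface ectoderm, whose libraries 1 to 5 lay within 147 to 166 CPM, with no overlap. Crest mesenchyme had 68.0, 84.7, 89.0, 116 and 231 CPM, endothelium 62.6 to 126 CPM and optic vesicle 29.7 to 80.1 CPM. Peg10, derived from a retrotransposon and required for the placenta, was highest in endothelium at 77.4, 109.9, 72.2, 93.02 and 235 CPM, above crest mesenchyme at 43.2 to 60.4 CPM. It was lowest of the 6 large classes in optic vesicle by median, at 5.93 to 37.7 CPM, where surface ectoderm at 4.92 to 59.3 CPM overlapped it.

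Mest, which encodes an enzyme of the alpha/beta-hydrolase fold, was above 600 CPM in every library of these 6 classes. Endothelium had 2193 to 3032 CPM, head mesoderm 1517 to 1857 CPM, crest mesenchyme 1322 to 1572 CPM, other forebrain 1241 to 1738 CPM and optic vesicle 873 to 1544 CPM. Surface ectoderm ran from 679 CPM in library 5 to 2511 CPM in library 2. Erythroid cells had 12.4 to 41.4 CPM.

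**Figure D2:**
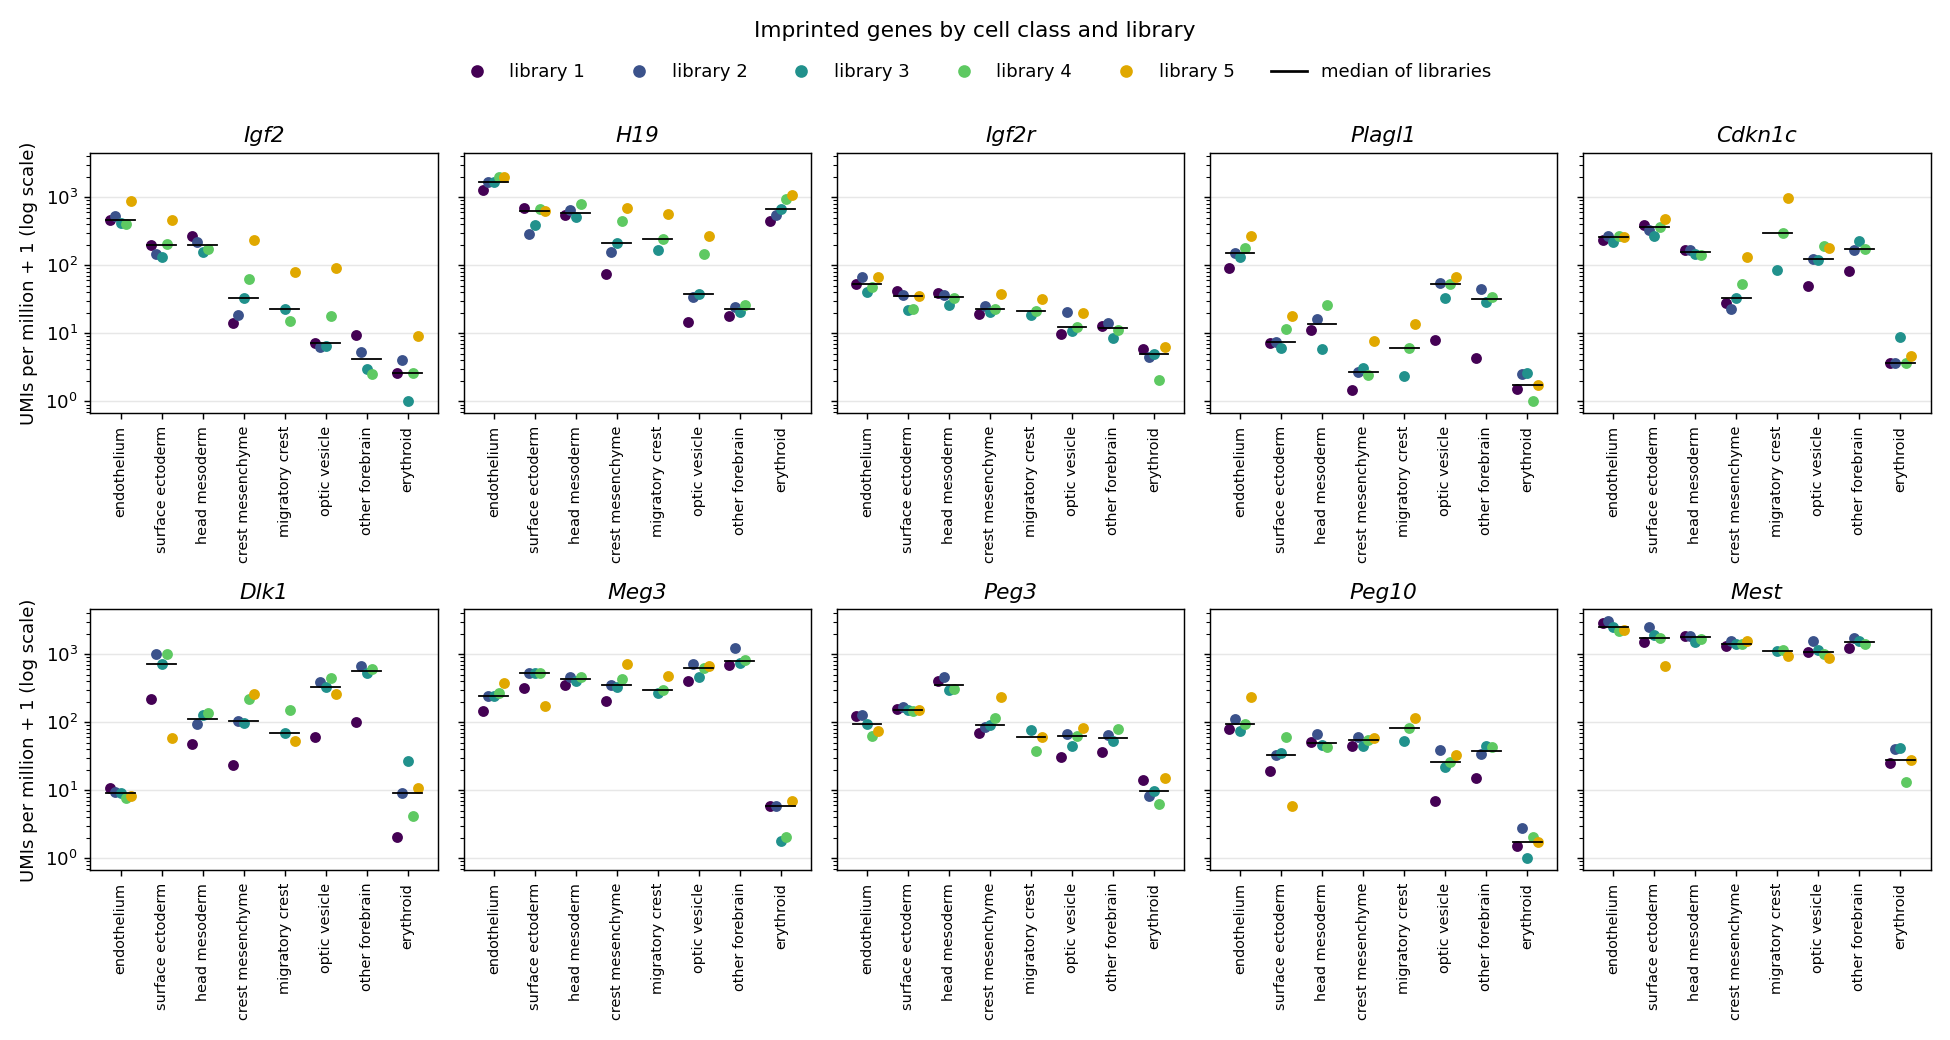
Level of each member (CPM plus 1, log scale) in 8 cell classes. Each point is 1 library with at least 20 cells of the class, coloured by library, and lines are medians of libraries. Endothelium leads by median for Igf2, H19, Igf2r, Plagl1, Peg10 and Mest and is near the bottom for Dlk1, and H19 alone stays high in erythroid cells.

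The spread between libraries within a class was set beside that of all genes with a mean of at least 20 CPM there. After 5 CPM was added to each value, the highest library of the optic vesicle was a median of 1.47 times the lowest over 4890 genes, against 14.4 times for H19, 9.32 for Igf2, 6.94 for Dlk1, 5.80 for Plagl1 and 1.76 for Mest. In crest mesenchyme the same ratio was 1.55 for the median gene, 13.2 for Igf2, 9.62 for Dlk1, 9.06 for H19 and 1.19 for Mest. In endothelium Igf2 was at 2.13 and H19 at 1.57, beside a median gene of 1.52. Peg10 at 3.11, Plagl1 at 2.90 and Meg3 at 2.53 spread more there, and Cdkn1c at 1.24 less. In surface ectoderm the median gene was at 1.51, Dlk1 at 16.2, Peg10 at 6.48 and Peg3 at 1.12. Each library is 1 embryo with its own mix of sub-clusters, so stage, embryo and composition cannot be told apart.

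Set against neuroepithelium (optic vesicle and other forebrain together), mesenchyme (crest and head mesoderm) had more Igf2, H19 and Peg3 and less Plagl1 and Cdkn1c. A member was called higher or lower when the ratio of summed levels was at least 2 in either direction, the higher class had at least 20 CPM, the exact 95% interval of the ratio excluded 1, and every library with at least 20 cells of both classes went the same way; this is named the size rule. Intervals cover counting error only. By this rule 3 members were higher and 2 lower in mesenchyme and 5 were neither, where 3.19% of 4953 genes were higher and 2.62% lower (5.81% in either direction). Igf2 was 3.76-fold higher (interval 3.59 to 3.94), 98.5 against 26.2 CPM. H19 was 3.77-fold higher, 363 against 96.4 CPM, and Peg3 2.77-fold higher, 165 against 59.4 CPM. Plagl1 was 10.4-fold lower (interval 9.11 to 11.9), 3.92 against 40.8 CPM, and Cdkn1c 2.03-fold lower, 72.7 against 148 CPM. Each of these held in 5 of 5 libraries. Library 5 lowered the ratios of Igf2 and H19: without it Igf2 was 10.1-fold higher, 71.2 against 7.03 CPM, and H19 6.45-fold higher, 298 against 46.2 CPM. Cdkn1c lay near the 2-fold limit and lost its call without library 2, without library 4 or without the Shh- and Nkx2-1-led sub-cluster. Dlk1, at 131 against 351 CPM, was lower in 4 libraries but not in library 5; without library 5, Dlk1 was called lower and Igf2r higher. The median log2 ratio was 0.61 over the 10 members and 0.06 over all genes tested.

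Endothelium differed most from mesenchyme: Igf2, H19, Igf2r, Plagl1, Cdkn1c and Peg10 were higher in endothelium and Dlk1 was lower. That is 6 members higher, 1 lower and 3 neither, where 10.3% of 5142 genes were higher and 4.69% lower (15% in either direction). Plagl1 was 40.0-fold higher (interval 34.9 to 45.9), 157 against 3.92 CPM. Igf2 was 5.19-fold higher (interval 5.01 to 5.38) and H19 4.69-fold higher, at 1706 against 363 CPM. Cdkn1c was 3.35-fold higher, 244 against 72.7 CPM. Igf2r at 2.02-fold and Peg10 at 2.08-fold lay near the limit; the Igf2r call was lost without library 1 or library 2, and the Peg10 call without library 5. Dlk1 was 16.2-fold lower (interval 13.3 to 19.8), 8.12 against 131 CPM, in 5 of 5 libraries. The median log2 ratio was 1.03 over the members and -0.14 over all genes tested.

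Surface ectoderm had more Cdkn1c than mesenchyme, 4.71-fold higher (interval 4.52 to 4.92), 343 against 72.7 CPM, in 5 of 5 libraries. It was the only member past the size rule, so 1 was higher and 0 lower, where 4.38% of 5134 genes were higher and 2.14% lower (6.53% in either direction). Igf2 at 196 against 98.5 CPM was just short of 2-fold, with 5 of 5 libraries in 1 direction, and was called without library 3 or library 5. Dlk1 at 708 against 131 CPM was higher in libraries 1 to 4 and lower in library 5, and was called without library 5. The median log2 ratio was 0.36 over the members and -0.06 over all genes tested.

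Within mesenchyme, head mesoderm had more Igf2, Cdkn1c and Peg3 than crest mesenchyme. These 3 members were higher and 0 lower, where 1.45% of 5049 genes were higher and 0.574% lower (2.02% in either direction). Peg3 was 3.16-fold higher (interval 3.04 to 3.29), 372 against 118 CPM. Igf2 was 2.98-fold higher, 215 against 72.1 CPM, and Cdkn1c 2.97-fold higher, 158 against 53.3 CPM, each in 4 of 4 libraries. Library 5, which holds 4 head mesoderm cells, lowered these ratios: without it Igf2 was 6.83-fold higher, 213 against 31.2 CPM, Cdkn1c 4.76-fold higher, 158 against 33.2 CPM, and Peg3 4.15-fold higher. H19 at 569 against 317 CPM was higher in 4 of 4 libraries at under 2-fold, and was called without library 5. The median log2 ratio was 0.63 over the members and 0.01 over all genes tested.

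In optic vesicle set against other forebrain, 9 members were not called. Plagl1 was 2.12-fold higher (interval 1.95 to 2.29) in optic vesicle, 48.7 against 23.0 CPM, in 4 of 4 libraries, and was the 1 member called higher, with 0 lower, where 0.716% of 4890 genes were higher and 0.613% lower (1.33% in either direction). That call rests on libraries 1 and 5: without library 1 the ratio was 1.43-fold, and library 5 has optic vesicle cells but no other forebrain cells. Over the 4 libraries that hold both classes, a choice made after the data were seen, 0 members passed the rule and Plagl1 was at 1.76-fold. The summed levels of Igf2, 35.7 against 4.82 CPM, and of H19, 130.2 against 20.7 CPM, were higher in optic vesicle in 3 of 4 libraries and not in library 1, so neither was called; both were called without library 1. Library 5 carried these sums: over the 4 libraries that hold both classes Igf2 was at 8.504 against 4.82 CPM and H19 at 63.3 against 20.7 CPM. Dlk1, Meg3 and Mest were below other forebrain in 4 of 4 libraries at under 2-fold, at 324 against 411 CPM, 593 against 835 CPM and 1080.2 against 1439.9 CPM. The median log2 ratio was 0.09 over the members and -0.07 over all genes tested.

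**Figure D3:**
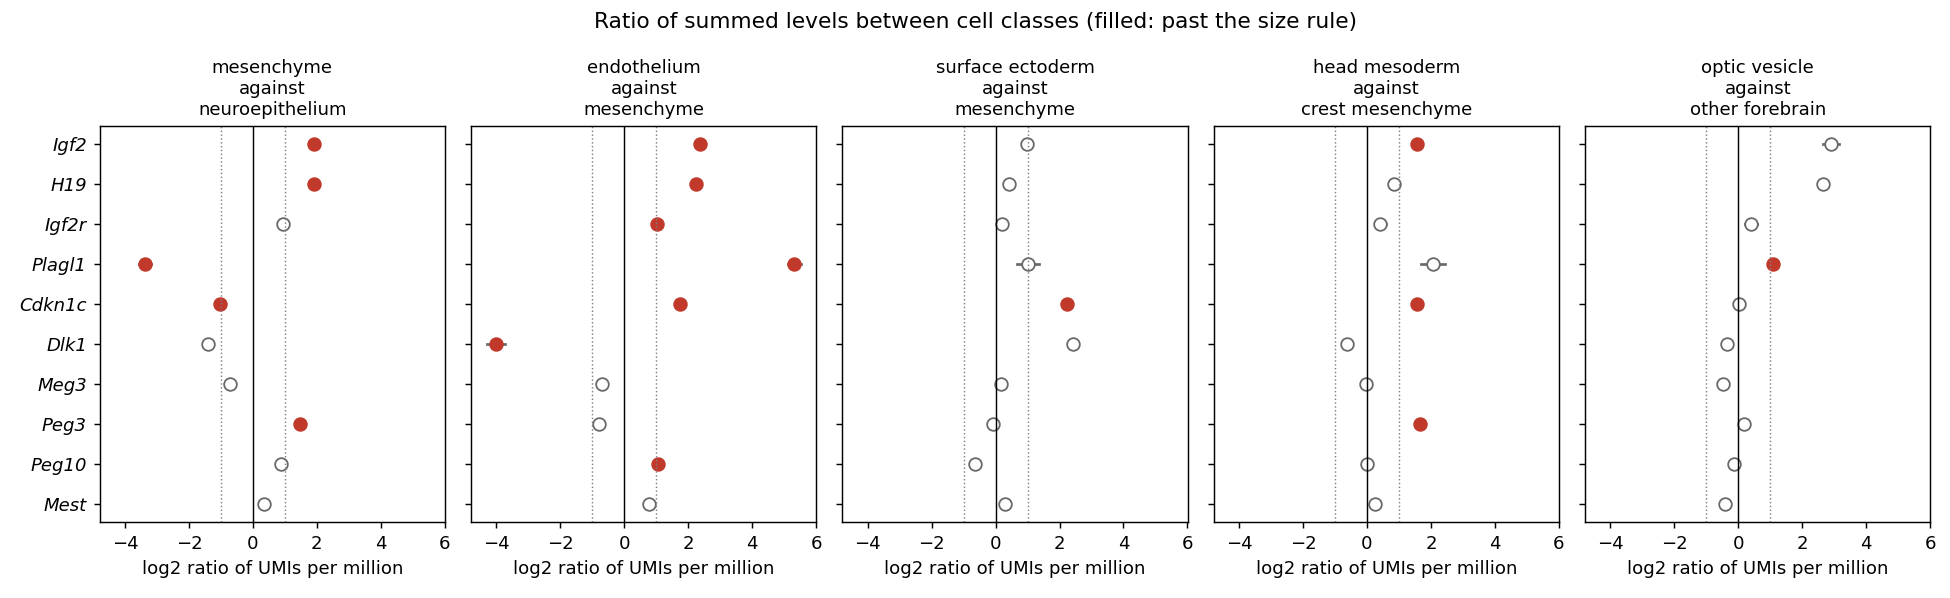
Log2 ratio of the summed level (CPM) of each member, first-named class over second, in 5 comparisons, with exact 95% intervals as lines where wider than the point and 2-fold limits dotted. Filled points passed the size rule; Plagl1 and Dlk1 lie farthest out in endothelium against mesenchyme, at 40.0-fold higher and 16.2-fold lower.

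Part of the spread within the optic vesicle followed a split into retinal pigment epithelium-like cells, the future pigmented layer, and the other cells. Such sub-clusters were found in library 4 (60 cells) and library 5 (139 cells) by their markers, among them Pmel and Trpm1. Igf2 and H19 were higher and Dlk1, Plagl1 and Peg10 lower in them than in the other optic vesicle cells: 2 members higher and 3 lower, where 1.37% of 5048 genes were higher and 0.713% lower. The cells had been clustered on their own genes, so these values describe the split and test nothing. Igf2 was at 47.0 and 220.0 CPM in the pigment epithelium-like cells of libraries 4 and 5, against 10.5 and 63.6 CPM in the other cells. H19 was at 366 and 518 CPM in the pigment epithelium-like cells of libraries 4 and 5, against 96.0 and 213 CPM in the other cells. The pigment epithelium-like cells were the higher group for both genes in both libraries. High Igf2 and H19 were not confined to them: a sub-cluster led by Aldh1a1 and Tbx5, counted among the other cells, had 28.3 CPM of Igf2 and 269.6 CPM of H19 in library 4 and 159 CPM of Igf2 and 436 CPM of H19 in library 5.

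Dlk1 was at 44.0 and 58.9 CPM in the pigment epithelium-like cells of libraries 4 and 5, against 532 and 299 CPM in the other cells, 7.08-fold lower over both libraries (interval 6.36 to 7.91). The other cells of library 4 include the Shh- and Nkx2-1-led sub-cluster: without it they had 196 CPM and Dlk1 was 5.02-fold lower over both libraries, and without all 6 sub-clusters led by markers of other regions it was 3.39-fold lower. The Aldh1a1- and Tbx5-led cells were also low, with 15.3 CPM of Dlk1 and 10.5 CPM of Peg10 in library 5 and 105 CPM of Dlk1 and 7.29 CPM of Peg10 in library 4. Plagl1 was at 10.6 and 32.7 CPM in the pigment epithelium-like cells of libraries 4 and 5, against 61.7 and 72.3 CPM in the other cells, and Peg10 at 5.28 and 10.8 CPM in the pigment epithelium-like cells of libraries 4 and 5, against 28.9 and 36.8 CPM in the other cells. Meg3, the neighbour of Dlk1, was lower at 1.76-fold and short of the rule. All 5 calls were kept without the Shh- and Nkx2-1-led sub-cluster and without all 6. Markers of mesenchyme and endothelium stayed near 0 in these cells, with 12 Col3a1 UMIs, 6 Twist1 UMIs and 1 Pecam1 UMI in all 199 of them, and the ratio of Col3a1 to the other optic vesicle cells was 1.12 (interval 0.542 to 2.13). Over the 8 optic vesicle sub-clusters of library 5, Igf2 ran over 4.87 to 220.0 CPM, H19 over 50.3 to 518 CPM and Dlk1 over 15.3 to 849 CPM. In library 3, with 6 such sub-clusters, Igf2 stayed within 1.38 to 9.88 CPM while Dlk1 ran over 127 to 1023 CPM.

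The surface ectoderm fell into 2 clusters with different levels of these genes. One was led by Pitx1 and Cldn6 (220 cells, 0 of them in library 5), the other by Sostdc1 and Krt7 (184 cells); Pitx1 and Hesx1, transcription factors of the oral and pituitary placode, were high in the first. Dlk1, Peg10, Meg3 and Mest were higher in the Pitx1-led cluster in the 3 libraries with at least 20 cells of both: 4 members higher and 0 lower, where 1.02% of 5195 genes were higher and 2.16% lower. This comparison was added after the data were seen, and the clusters were made from the same cells. Dlk1 was at 1388, 939 and 2038 CPM in the Pitx1-led cells of libraries 2 to 4, against 29.4, 60.2 and 99.5 CPM in the Sostdc1-led cells, 19.2-fold higher over all cells (interval 17.2 to 21.5). Meg3 was at 719.8, 656 and 998 CPM in the Pitx1-led cells of libraries 2 to 4, against 41.6, 132 and 112 CPM in the Sostdc1-led cells. The groups did not overlap for either gene.

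Peg10 was at 44.5, 44.7 and 125 CPM in the Pitx1-led cells of libraries 2 to 4, against 2.03, 1.20 and 2.88 CPM in the Sostdc1-led cells, and the Sostdc1-led values rest on 2, 1 and 4 UMIs. Mest was 3.65-fold higher, 2640.3 against 724 CPM. Igf2 was at 158 against 249 CPM over all cells, where the Sostdc1-led sum includes library 5. It was at 134, 126 and 182 CPM in the Pitx1-led cells of libraries 2 to 4, against 168, 141 and 224 CPM in the Sostdc1-led cells. Igf2 was thus lower in 3 of 3 libraries and Peg3 in 2 of 3, short of the rule. H19 was higher in 3 of 3 libraries at under 2-fold. Cdkn1c was called higher without library 3 or library 5. Library 5 held only the Sostdc1-led cluster, and its ectodermal level of 57.0 CPM for Dlk1 lay within the Sostdc1-led values of libraries 2 to 4. Peg3 and Mest did so too. The other members lay above those values in library 5, among them Igf2 at 461, H19 at 626, Cdkn1c at 470 and Meg3 at 174 CPM. The part of the cluster mix in the levels of library 5 was not tested.

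**Figure D4:**
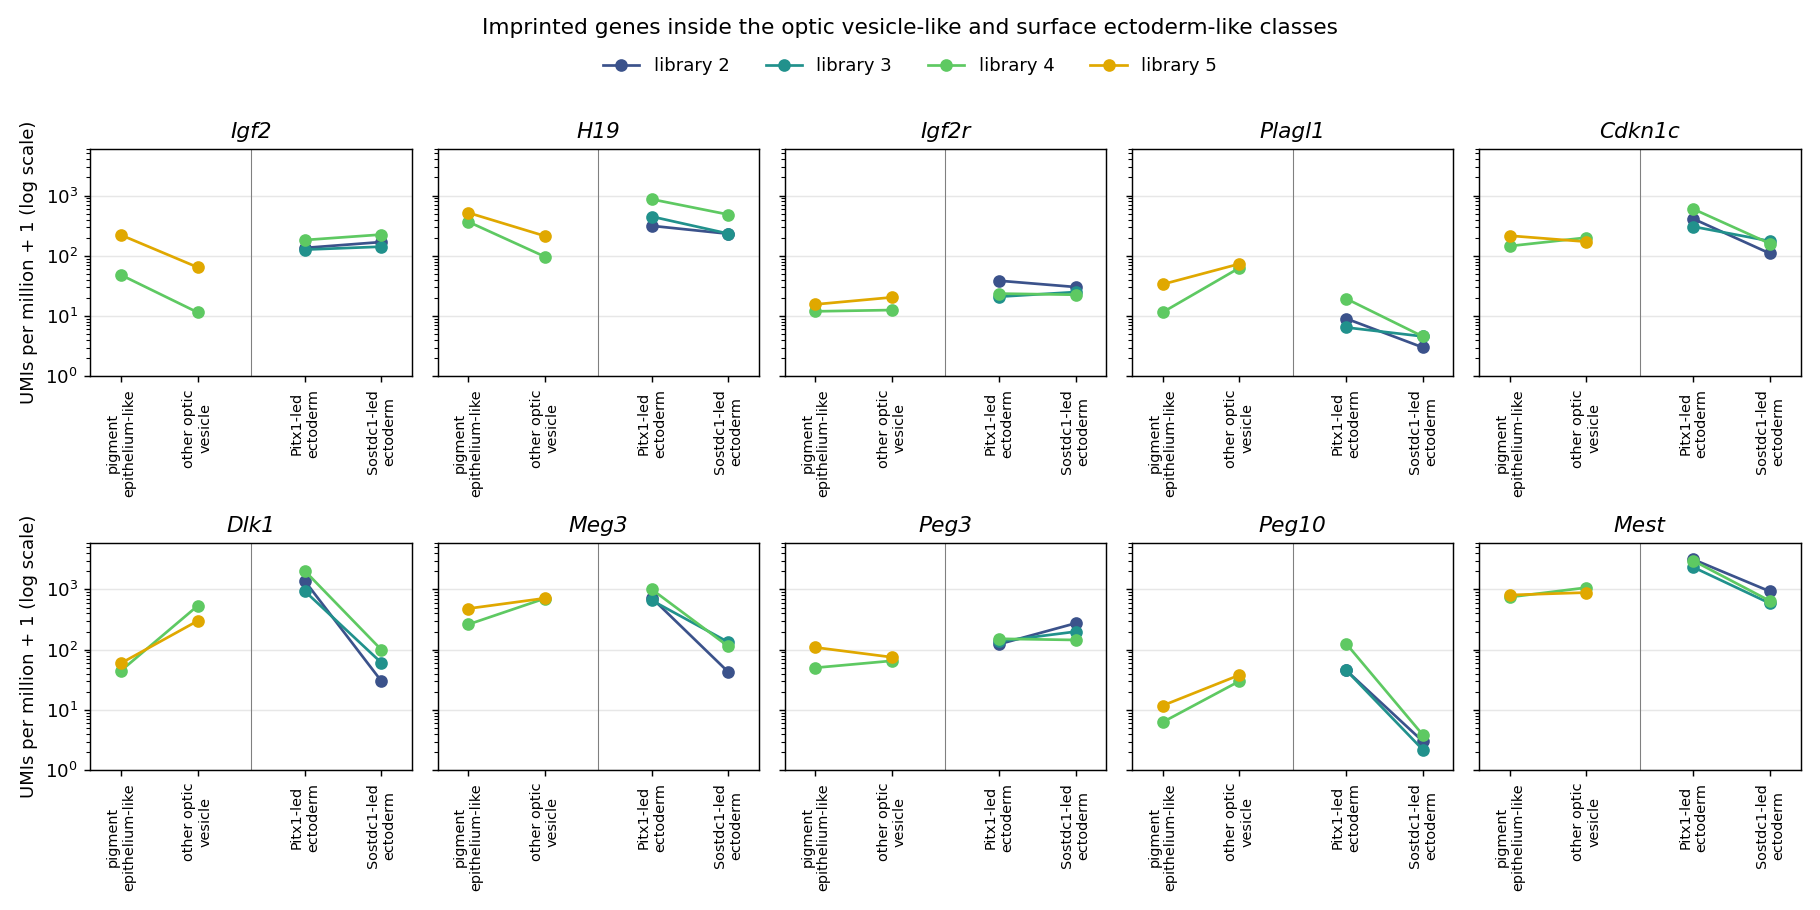
Level of each member (CPM plus 1, log scale) within 2 classes, with 1 line per library joining the 2 sides. On the left of each panel, pigment epithelium-like cells are set beside the other optic vesicle cells of libraries 4 and 5; on the right, the Pitx1-led beside the Sostdc1-led ectodermal cluster of libraries 2 to 4. Igf2 and H19 are higher in the pigment epithelium-like cells, and Dlk1, Meg3, Peg10 and Mest in the Pitx1-led cluster.

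The members were then followed from cell to cell. Each cell was thinned to 10000 UMIs, and Spearman's rho was computed within 1 class and 1 library, for genes with a mean of at least 0.5 UMIs in at least 50 cells. Cells of 1 library share an embryo, so rho is a description and carries no p. Over all genes of that abundance the median rho with Dlk1 or H19 lay within 0.02 of 0 in every class and library.

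Dlk1 and Meg3 varied together in the neural and ectodermal cells. In optic vesicle their rho was 0.112, 0.470, 0.487, 0.650 and 0.577 in libraries 1 to 5, and Meg3 was the gene of highest rho with Dlk1 among all genes measured in libraries 2 to 5 (2571, 2361, 2397 and 2612 genes). The 99th percentile of rho with Dlk1 over all genes there was 0.199, 0.141, 0.283 and 0.265. When ranks were centred within each sub-cluster, rho was 0.112, 0.403, 0.340, 0.206 and 0.359 in libraries 1 to 5. In other forebrain it was 0.119, 0.266, 0.271 and 0.283 in libraries 1 to 4, where the 99th percentile with Dlk1 was 0.141, 0.196, 0.194 and 0.182, so that library 1 lay below it. In crest mesenchyme it was 0.0101, 0.132, 0.302 and 0.213 in libraries 2 to 5. Meg3 had its highest rho with the nuclear RNA Malat1 in other forebrain, at 0.572, 0.575, 0.377 and 0.519 in libraries 1 to 4, and in crest mesenchyme, at 0.364, 0.384, 0.466 and 0.314 in libraries 2 to 5. The part of nuclear RNA in the rho of Dlk1 and Meg3 was not tested.

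In surface ectoderm, Dlk1 had a rho with Meg3 of 0.811, 0.653, 0.730 and 0.392 and with Mest of 0.853, 0.808, 0.775 and -0.399 in libraries 2 to 5. Mest was the gene of highest rho with Dlk1 in libraries 2 to 4. Within the Pitx1-led cluster alone the rho of Dlk1 with Mest was 0.676 and 0.733 and with Meg3 0.464 and 0.618 in libraries 2 and 3. In the Sostdc1-led cells of library 5 Dlk1 had a rho of 0.392 with Meg3 and of -0.399 with Mest.

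Igf2 and H19 had a positive rho wherever both were abundant enough: 0.274, 0.359, 0.546, 0.239 and 0.356 in endothelium of libraries 1 to 5, 0.383, 0.236 and 0.235 in head mesoderm of libraries 1 to 3, 0.321, 0.248, 0.255 and 0.249 in surface ectoderm of libraries 2 to 5, 0.136 and 0.364 in crest mesenchyme of libraries 4 and 5, and 0.570 in optic vesicle of library 5. In optic vesicle of library 5 it was 0.309 when ranks were centred within sub-clusters and 0.213 among the pigment epithelium-like cells alone. In optic vesicle of library 5 and in crest mesenchyme of library 5 each was the other's gene of highest rho. The 99th percentile of rho with Igf2 over all genes was 0.364, 0.364, 0.353, 0.308 and 0.350 in endothelium of libraries 1 to 5. There the rho with H19 was above it in libraries 3 and 5 only. The rho was also below that percentile in head mesoderm of library 2, surface ectoderm of libraries 4 and 5 and crest mesenchyme of library 4. H19 and Dlk1 ran against each other in optic vesicle, at -0.377 and -0.328 in libraries 4 and 5, and centring ranks within sub-clusters gave -0.0663 and -0.0705 there.

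In endothelium, H19 had its highest rho with Gja4, a connexin of arterial endothelium, in libraries 3, 4 and 5, at 0.721, 0.494 and 0.502, where the 99th percentile over all genes was 0.478, 0.329 and 0.341. Igf2 had its highest rho with Gja4 in libraries 3 and 5, at 0.601 and 0.564, and Cdkn1c in libraries 1 to 3, at 0.528, 0.638 and 0.636. Gja4 is named because it led these lists and was chosen after its values were seen. The summed UMIs of S phase genes had a negative rho with H19 in endothelium, -0.278, -0.493, -0.264, -0.125 and -0.425 in libraries 1 to 5, and with Meg3 in crest mesenchyme, -0.303, -0.277, -0.182, -0.242 and -0.240. In other forebrain, Meg3 had a positive rho with the summed G2 and M phase genes, 0.349, 0.289, 0.126 and 0.279 in libraries 1 to 4.

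**Figure D5:**
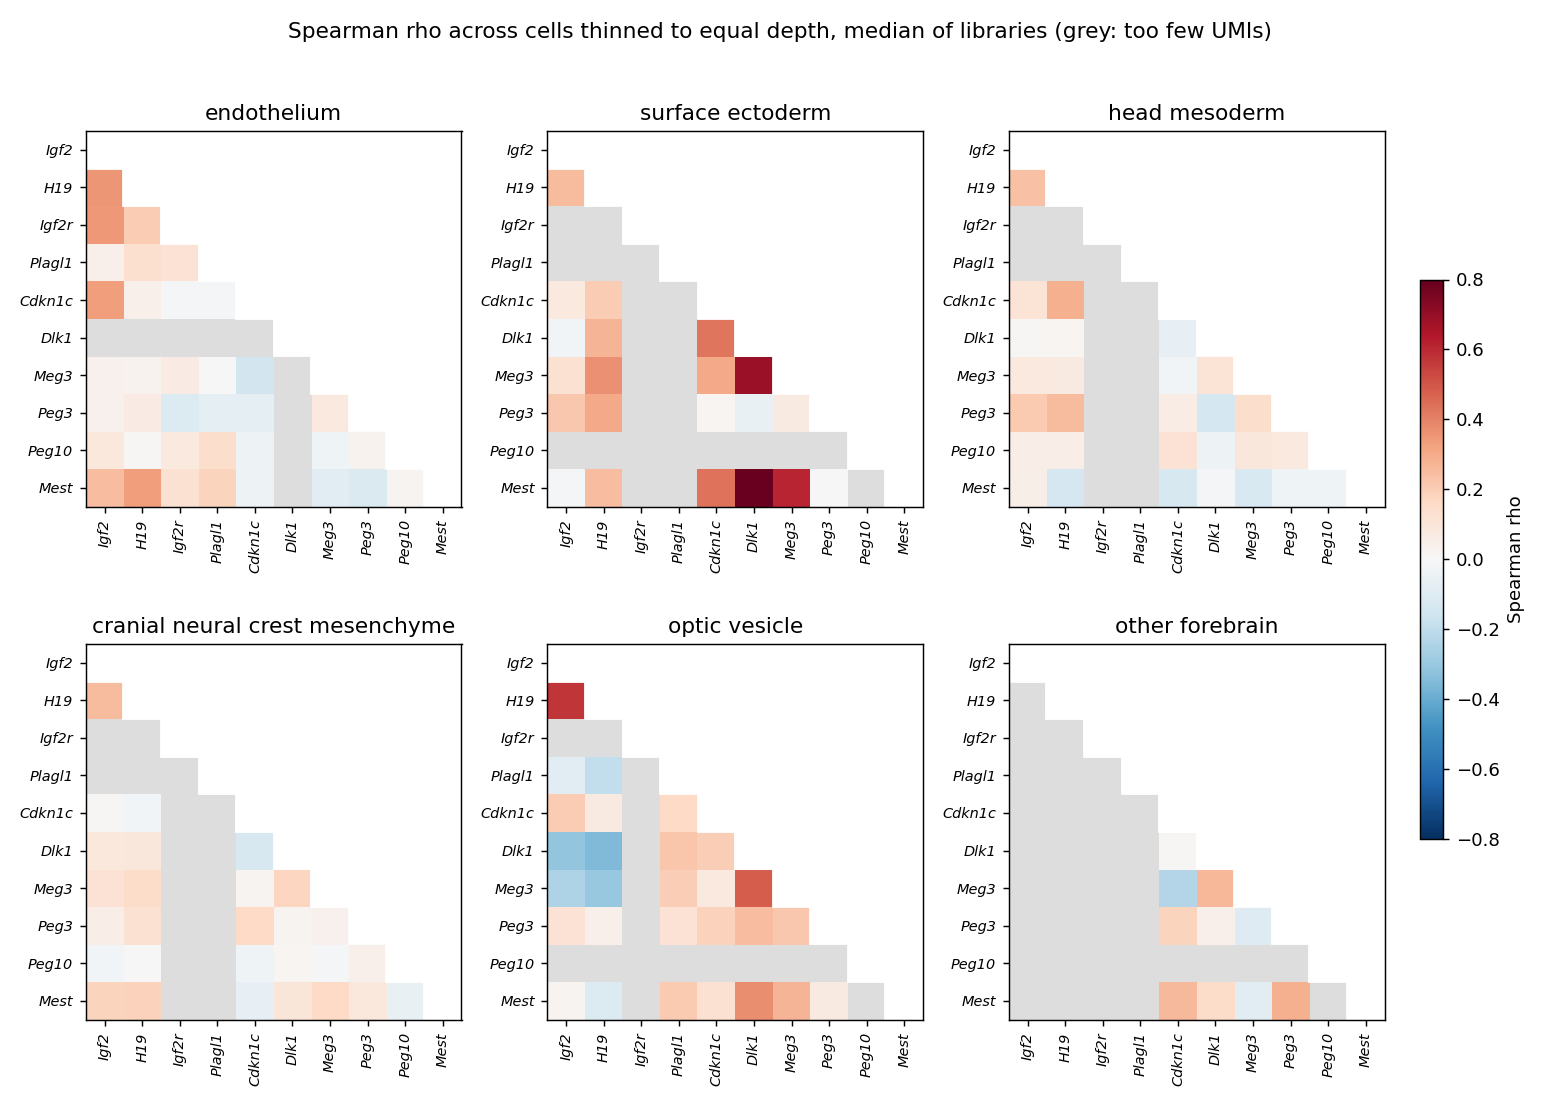
Spearman's rho between members across cells thinned to 10000 UMIs, as the median over the libraries in which both genes averaged at least 0.5 UMIs in at least 50 cells, in 6 classes. Red is positive, blue negative and grey too sparse; the deepest red is Dlk1 with Mest (0.791) and Meg3 (0.691) in surface ectoderm.

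Clusters poor in Malat1, a nuclear RNA, were kept out of the classes. In the 192 such cells with crest markers, Malat1 was 23.6-fold lower, 133 against 3131 CPM in the 1713 other crest mesenchyme cells. Meg3 was 25.1-fold lower, 16.2 against 406 CPM, close to the ratio of Malat1. Igf2r was 11.4-fold lower, 2.11 against 24.2 CPM, on 6 UMIs. Peg10 was 5.47-fold lower, 9.50 against 52.0 CPM, and Peg3 4.18-fold lower, 28.1 against 118 CPM. Mest was 1.30-fold lower, 1115 against 1454 CPM, and these 5 members were lower in 4 of 4 libraries. Dlk1 was 1.57-fold lower, also in 4 of 4 libraries, and the non-coding H19 1.93-fold lower, in 3 of 4. Igf2 and Cdkn1c were 3.11-fold and 1.67-fold lower over all cells but in only 2 of 4 libraries. The part of this depletion in the other results was not tested beyond leaving these cells out and putting them back.

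The counts of the gene lists that follow stand beside the shares of all genes given above for the same comparisons, which were taken over genes with a mean of at least 20 CPM. Only some list genes reached that mean, and a gene below it could still be called. Among 49 other imprinted genes, 14 to 17 of which reached it, depending on the comparison, 2 were higher and 2 lower in endothelium than in mesenchyme: Asb4, a gene of vascular cells, was 7.12-fold higher, 149 against 20.98 CPM, Cd81 was 4.32-fold higher, 645 against 149 CPM, Nnat was 7.72-fold lower, 80.9 against 625 CPM and Impact was 3.17-fold lower, 9.66 against 30.7 CPM. The share of all genes there was 10.3% higher and 4.69% lower. In mesenchyme set against neuroepithelium, 3 were higher and 0 lower, namely Slc38a4, Asb4 and Nnat, at 4.997-fold, 4.78-fold and 2.58-fold, beside 3.19% and 2.62% of all genes. In head mesoderm 3 were higher and 0 lower than in crest mesenchyme, with Asb4 at 9.96-fold, Nnat at 2.13-fold and Usp29, the neighbour of Peg3, at 3.43-fold, beside 1.45% and 0.574% of all genes. In surface ectoderm 0 were higher and 2 lower (Asb4 and Peg12, both below a mean of 20 CPM) than in mesenchyme, and in optic vesicle 0 were higher and 0 lower than in other forebrain.

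Of 23 IGF pathway genes, 8 to 10 of which reached a mean of 20 CPM, 2 were higher and 3 lower in mesenchyme than in neuroepithelium, beside 3.19% and 2.62% of all genes. Igf1, the sister growth factor, was 57.4-fold higher, 41.8 against 0.730 CPM, and Igfbp4, which binds IGFs outside cells, was 4.31-fold higher, 525 against 122 CPM. The adaptor Irs4 was 21.8-fold lower, 1.96 against 42.7 CPM, Igfbp5 was 8.26-fold lower, 6.52 against 53.8 CPM and Igfbp2 was 4.64-fold lower, 66.6 against 309 CPM. In surface ectoderm 3 were higher and 1 lower than in mesenchyme, beside 4.38% and 2.14% of all genes, with Igfbp5 78.8-fold higher, 513 against 6.52 CPM. In endothelium 1 was higher and 0 lower than in mesenchyme, with Igfbp3 18.7-fold higher, 79.2 against 4.22 CPM. Igfbp2 was 3.52-fold higher, 159.9 against 45.4 CPM, in head mesoderm against crest mesenchyme, the only 1 of 23 called there, and 2.24-fold lower, 223 against 500.2 CPM, in optic vesicle against other forebrain, again the only 1.

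Of 15 listed CDK inhibitors, cyclins and cyclin-dependent kinases, 8 or 9 reached that mean. In endothelium 0 were higher and 3 lower than in mesenchyme, beside 10.3% and 4.69% of all genes. These 3 were Ccnd2, 4.17-fold lower at 92.9 against 387 CPM, Ccne1 and Cdk6. Only Cdk6 was called in mesenchyme against neuroepithelium, 2.01-fold higher. No CDK inhibitor of the list was called. Of 12 Dlk1 and Notch neighbours, 2 of which reached that mean in endothelium against mesenchyme, 3 were higher and 0 lower in endothelium, with Notch1 17.8-fold higher, 79.5 against 4.47 CPM, Notch4 16.8-fold higher, 30.9 against 1.85 CPM, and Dll4 on 284 UMIs against 1; Notch4 and Dll4 lay below a mean of 20 CPM. Hes5, also below it, was 41.0-fold lower, 0.731 against 29.99 CPM, and Hes1 was 2.51-fold lower, in mesenchyme against neuroepithelium, where 0 were higher and 2 lower of the 12. In optic vesicle against other forebrain Hes1 was 2.05-fold higher and Hes5 2.22-fold lower, 1 of 12 each way. Another list of 14 genes held Plag1 and Plagl2, relatives of Plagl1, with genes of DNA methylation and imprint upkeep. Of these, 8 reached a mean of 20 CPM. In mesenchyme against neuroepithelium 1 was higher (Dnmt3a, 2.03-fold) and 0 lower, beside 3.19% and 2.62% of all genes. In endothelium against mesenchyme 0 were higher and 1 lower (Dnmt3a, 2.18-fold), beside 10.3% and 4.69%. In surface ectoderm against mesenchyme 1 was higher (Dnmt3b, 2.76-fold) and 1 lower (Dnmt3a, 2.13-fold), beside 4.38% and 2.14%. None of the 21 genes listed for S phase, the 27 for G2 or M phase or the 5 nuclear RNAs was called in any of the 5 comparisons. Of 12 dissociation stress genes, Atf3, Junb and Dusp1 were higher in endothelium, at 33.5, 38.2 and 27.6 CPM against 2.79, 4.16 and 5.602 CPM in mesenchyme, beside the 6 members that were higher there, and Jun was 4.97-fold lower in surface ectoderm; their part in the results was not tested.

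The genes whose levels were most like those of a member were found by Pearson's r of log2(CPM + 5) over 36 class-by-library sums and 4890 genes. These sums share libraries and include the erythroid ones, which are low for most members. Igf2 was most like Col4a2 (0.924), Bambi and Arhgap29. Plagl1 was most like Rgs2 (0.877), Gnai2 and Notch1, and Cdkn1c most like Hsbp1 (0.924), Sgce, itself an imprinted gene beside Peg10, and Cpne3. The gene most like H19 was Sri (0.834), that most like Igf2r was Rrbp1 (0.967) and that most like Dlk1 was Timm8b (0.892). For Meg3 it was Tead2 (0.971), for Peg3 Mpped2 (0.923), for Peg10 Nckap1 (0.921) and for Mest Gna11 (0.984).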

How the data were processed

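The deposited matrix holds UMI counts per gene and barcode for 5 libraries, as the authors made them. Cell Ranger and the mouse build mm10 (GRCm38) were used, per the submitters' processing notes; its version and cell calling are not stated there. From these counts, barcodes were dropped if they had under 1000 genes or over 10% of UMIs from mitochondrial genes, and Scrublet calls at an assumed rate of 6% (66 barcodes, 0.808%) were removed too. Counts were scaled to 10000 per cell and log-transformed. Cells were clustered on 2000 variable genes, 30 principal components and 15 neighbours with the Leiden method at resolution 1, without integration (scanpy 1.11.5, numpy 2.4.6, scipy 1.17.1, Python 3.11.15). The 10 members and all gene lists were left out of the variable genes. Neuroepithelium was clustered again within each library. Clusters were named by a rule that needs 3 markers at least 2-fold above the other cells, 5 for optic vesicle, so class names were rebuilt here. Clusters with under 25% of the usual Malat1 were set apart.

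CPM were computed here from summed counts. Intervals are exact at 95% and cover counting error only. No test was made: no barcode suffix could be tied to a labelled sample, so libraries were not treated as replicates, and the direction in each library is part of the size rule instead. For correlations, cells under 10000 UMIs (370) were left out. The text names all 10 members, up to 5 genes of each list past the size rule, and the 3 genes most like a member. The members and lists were chosen with earlier results of these data known. Of 178 list genes, 176 were in the matrix. The comparison rule was tested on simulated data. The alternatives were library weights, scaling, denominator, CPM minimum, doublets, resolution, clustering genes, low-Malat1 clusters, left-out libraries and thinning. Leaving out cells of high depth or optic vesicle sub-clusters led by markers of other brain regions, and limiting sums to libraries with both classes, were added after seeing the data, as were both comparisons within a class.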

Additional observations from a re-analysis of the deposited data

How the results depend on the processing

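The number of members past the size rule stayed within 1.5 times its value in mesenchyme against neuroepithelium (5 members, 4 to 7 with 1 library left out), endothelium against mesenchyme (7, and 6 to 7), head mesoderm against crest mesenchyme (3, and 3 to 4), pigment epithelium-like against other optic vesicle cells (5, and 5 to 6) and the ectodermal clusters (4, and 4 to 5) under every alternative run. In surface ectoderm against mesenchyme, where 1 member passed, 2 passed with equal library weight, median-of-ratios scaling, no ribosomal, mitochondrial or haemoglobin genes in the total, resolution 2, low-Malat1 clusters kept, or cells over 2 times the library median UMIs left out (Igf2 gained each time), and 2 without a minimum CPM (Plagl1 gained). Leaving out 1 library gave 1 to 3. In optic vesicle against other forebrain, where 1 passed, 0 passed with equal library weight, doublets kept, or only libraries with 20 cells of both classes (Plagl1 lost), and 2 with the members and lists allowed in the clustering (Igf2 and H19 gained, Plagl1 lost). Leaving out 1 library gave 0 to 2. The cause of these changes was not tested. Of 144 pairs by class, 27 had a median rho of at least 0.2 in size with 1 sign in all libraries. Without thinning 46 did, 25 of them shared, and at 5000 UMIs 14 did, 13 of them shared. Another random seed gave 27, of which 22 were shared. Among the 27 pairs past the cut the sign turned for 1: the rho of Igf2 and Peg3, head mesoderm, was -0.0678 at 5000 UMIs. Changes of sign among the other pairs were not counted. In each of these settings, another seed included, the largest change of rho over the 144 pairs was above 0.2. Without the Shh- and Nkx2-1-led sub-cluster of library 4, mesenchyme against neuroepithelium lost Cdkn1c, and without all 6 optic vesicle sub-clusters led by markers of other regions it lost Cdkn1c and gained Peg10. No paired test was made: the results come from no test, since no label ties a library to a numbered sample. The barcode suffix would allow class differences to be paired by library, but such a fit was not run. Depth limits what can be said of Plagl1 in crest mesenchyme, Igf2 in forebrain and Dlk1 in endothelium, whose ranges over libraries overlapped those of erythroid cells.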

Other observations

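Migratory neural crest-like cells, which no comparison used, had 83.2, 300.2 and 971 CPM of Cdkn1c in libraries 3, 4 and 5. Their Igf2 level was 21.7, 13.9 and 78.6 CPM and their H19 level 164, 238 and 563 CPM, so that library 5 was highest for all 3 genes. The 84 cells of library 4 led by Shh and Nkx2-1, which the naming rule counted as optic vesicle, had 1803 CPM of Dlk1, 1819 CPM of Meg3 and 538 CPM of Cdkn1c. The unnamed sub-clusters of libraries 2 and 3 that were also set off by Sepp1, Mt3 and Maf had 2223 and 1452 CPM of Dlk1. Their Cdkn1c levels were 717 and 473 CPM. The 101 cells of library 5 led by Aldh1a1 and Tbx5 had 15.3 CPM of Dlk1, with 159 CPM of Igf2 and 436 CPM of H19. These sub-clusters were picked out after their values were seen.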
